A study of Mus musculus with 96 samples.

Results

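The genes described here are the protein-coding genes of the mouse whose symbols start with Eif1, Eif2, Eif3, Eif4, Eif5 or Eif6, the translation initiation factors and their named partners. They were found by symbol among 55401 gene rows, after each Ensembl identifier was matched without its version to GENCODE M21. Of 66 rows with such a symbol, 55 are protein-coding and are the members, and 11 pseudogene or non-coding rows were left out. The left-out rows are not all silent: Eif4a-ps4, a processed pseudogene on chromosome 1, took 104049 counts over all libraries.

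RNA was profiled in 96 single oocytes and embryos of strain C57BL/6J by SMART-Seq v4, which primes cDNA on poly(A) tails and does not mark the strand. The 7 morulae were taken at about 84 h after fertilization, the 8 late 2-cell embryos at 36 h, and 73 embryos in 13 groups of 2 to 10 at intervals of 2 h between 24 h and 0 h. The 8 oocytes are the unfertilized baseline. No embryo was treated, all females had been superovulated with PMSG and hCG, and their cumulus cells were removed with hyaluronidase. Each library is 1 oocyte or embryo, and no label names its mother, so p-values measure the spread between single embryos. Embryos from 0 h through 36 h went through cDNA synthesis as 1 cohort, while the oocytes and the morulae were each handled as a batch of their own, so batch and stage cannot be told apart when 0 h embryos are set against oocytes or morulae against 36 h embryos.

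Rounded gene counts per library ran between 10614 and 6798455, with a median of 2101302. Levels are given as CPM, the counts of a gene scaled to a common library size after TMM adjustment over the 96 libraries, and ± is the SD over libraries unless SE is named. Morula replicate 4 held the 10614 counts, and the next lowest library held 565920. At 10 h, replicate 5 stood apart from its group: its 10 oocyte markers summed to 30.1 CPM, against a group median of 20584 CPM, while its 8 morula markers summed to 8313 CPM against a group median of 219 CPM. Both libraries stayed in, and some results on the members that rest on them are also given without them. Morula values include replicate 4 unless stated.

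Initiation begins when eIF4E binds the cap of a messenger RNA and recruits the scaffold eIF4G and the helicase eIF4A. The small ribosomal subunit, loaded by eIF3 and by the eIF2 complex that carries the initiator tRNA, then scans for a start codon under the control of eIF1, eIF1A and eIF5. The exchange factor eIF2B recharges eIF2 with GTP, kinases that phosphorylate the alpha subunit of eIF2 block that step, and eIF5B joins the large subunit. Growing and maturing oocytes store messenger RNA with short tails and translate it later, and Eif4e1b encodes a cap-binding protein known from germ cells and early embryos of vertebrates.

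The members together made up 8566 ± 479 CPM in the 8 oocytes. By 24 h their sum was 9033 ± 1402 CPM (n = 6), by 36 h it was 6528 ± 663 CPM (n = 8), and the 7 morulae reached 18944 ± 6984 CPM. All morulae but replicate 4 lay above the highest library of any earlier stage, at 12113 CPM, while replicate 4, at 5151 CPM, lay below the lowest 36 h embryo, at 5895 CPM. A mean of at least 100 CPM was reached by 17 members in oocytes, 15 at 36 h and 29 in morulae. Of the 55 members, 34 had their highest group mean in morulae, and 37 did when the 10 h and morula libraries that stood apart were left out. The share of all genes with their highest mean in morulae was not counted, so these counts do not set the members apart from genes at large.

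**Figure D1:**
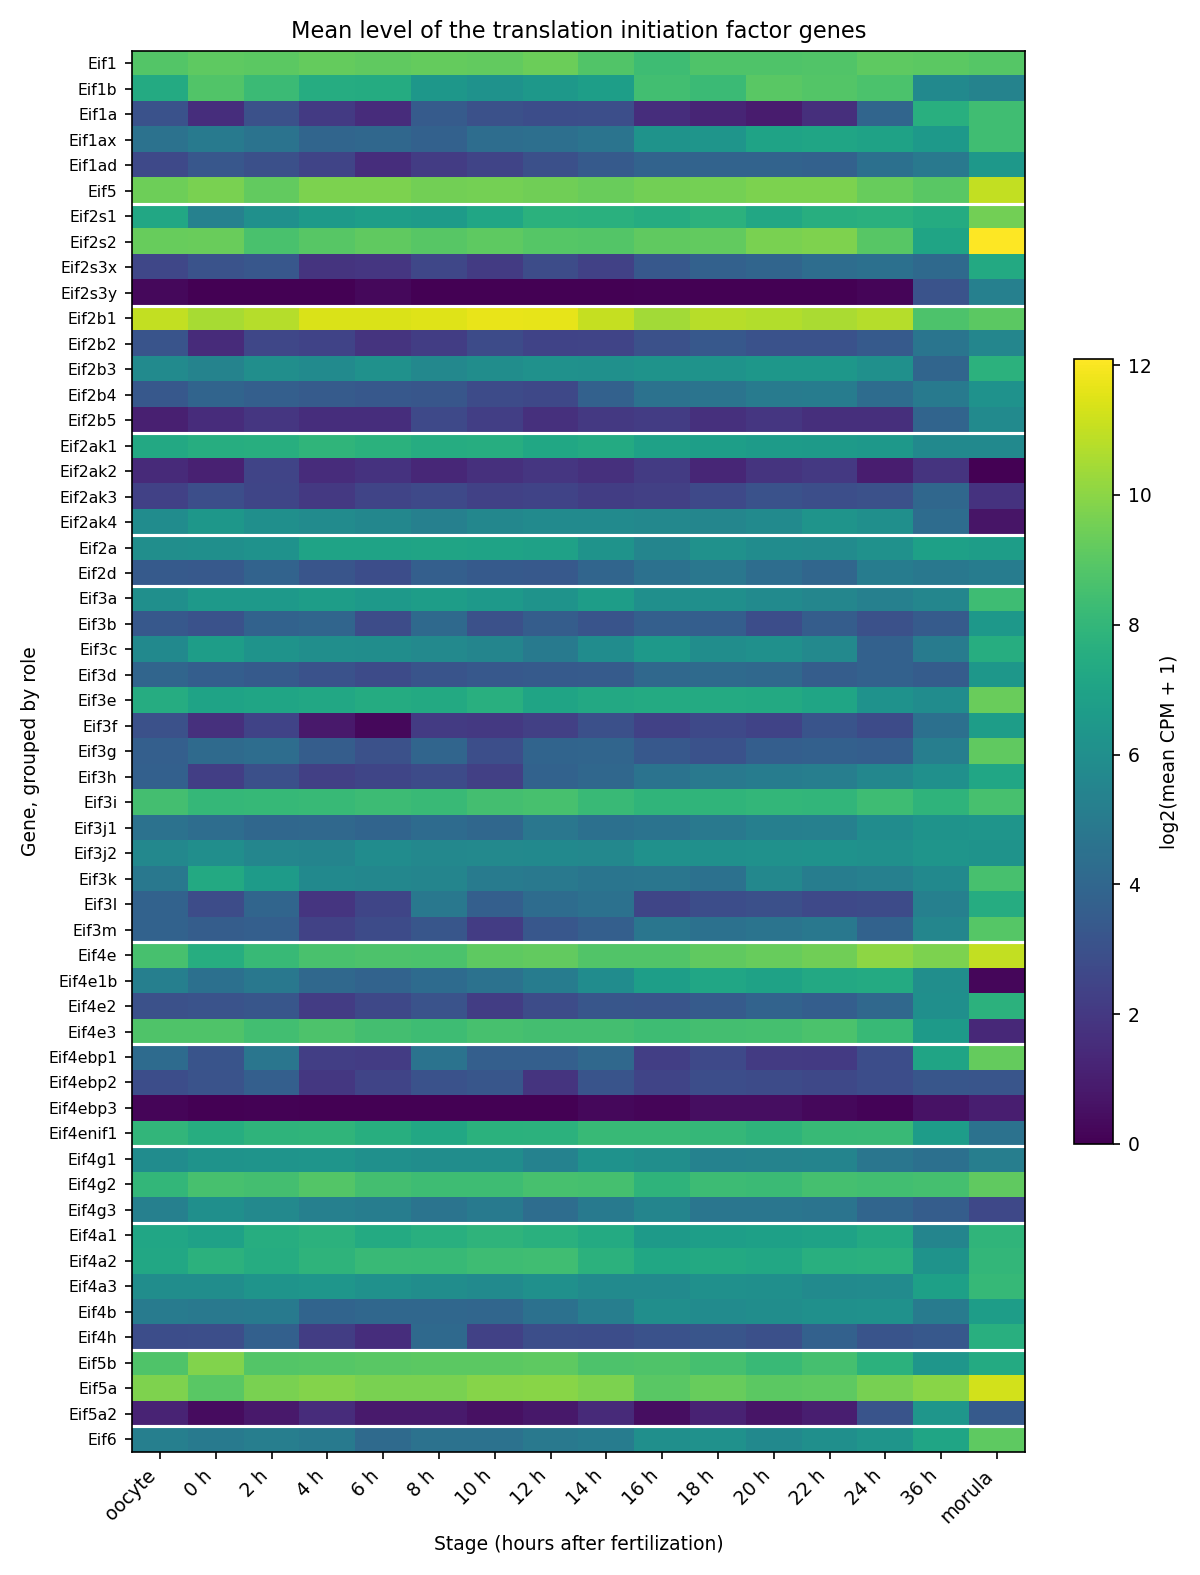
Mean level, as log2(mean CPM + 1), of each of the 55 members (rows, grouped by role and parted by white lines) in the 16 stages (columns), without 10 h replicate 5 and morula replicate 4. Most rows are brightest in the morula column, where 37 members have their highest mean, while 9 members, among them Eif4e1b, Eif4e3, Eif2ak4 and Eif2ak2, have their lowest mean there. The like shares of all genes were not counted.

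Compared per kilobase of exons, the order of the members changed between stages. In oocytes the highest level was that of Eif2b1, the alpha subunit of eIF2B, at 788 CPM per kb, followed by Eif5a at 359 CPM per kb and Eif1 at 218 CPM per kb. At 36 h Eif5a led with 417 CPM per kb and Eif2b1 had 165 CPM per kb. In morulae Eif5a reached 913 CPM per kb, Eif2s2 572 CPM per kb and Eif4e 297 CPM per kb.

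Each pair of stages was tested with edgeR's quasi-likelihood test over all genes that passed a filter on low counts, with an adjusted p below 0.05 as the threshold and the later stage over the earlier. At 0 h against oocytes, 50 members were tested, 14 were higher and 12 lower, where 45.7% of all 9561 genes tested were called, 25.3% higher and 20.5% lower. At 12 h against 0 h, 42 members were tested, 9 were higher and 7 lower, where 39.0% of all genes were called, 19.6% higher and 19.4% lower. With library size alone as the scaling, that split was 7 higher and 12 lower, and the split of all 8232 genes tested was 1011 higher and 2254 lower. For 24 h against 12 h, 12 of 50 members were higher and 3 lower, where 21.7% of all genes were called, 13.4% higher and 8.32% lower. For 36 h against 24 h, 14 of 52 members were higher and 14 lower, where 53.5% of all genes were called, 28.1% higher and 25.4% lower. At these 4 steps the members were called about as often as genes at large, the widest gap being that of 24 h against 12 h, with 15 of 50 members called. In 1 fit of all libraries, which shares 1 estimate of the spread, 7 members were called at 0 h, where 1603 of 18995 genes were, and 9 at 12 h, where 1706 genes were. At 24 h against 12 h, 7 members were called without 12 h replicate 1, where 1671 of 11947 genes were, and 9 without 12 h replicate 3 or 4, where 1735 of 12000 and 1902 of 12004 genes were. Without the 24 h embryos whose titles end in b it was 25 members, where 4080 of 11380 genes were called.

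Morulae against 36 h embryos gave another split. Of 52 members tested, 33 were higher and 7 lower, while 28.4% of all 11234 genes tested were called higher, 43.3% were called lower and 71.8% were called in either direction. The median log2 change of the members was 1.13, against −0.53 over all genes tested. Without morula replicate 4, 36 members were higher and 6 lower, with a median of 1.35. With RLE size factors 28 were higher and 9 lower (median 0.80), where 2744 and 5464 of all 11234 genes were (median −0.87). DESeq2 also gave 28 and 9 (median 0.81), beside 2785 and 5491 of all genes (median −0.86). The title number as a replicate block gave 28 and 6 (median 1.23), beside 2896 and 4637 of all genes (median −0.57). Up to 36 h the members' medians lay between −0.18 and 0.11, and those of all genes tested between −0.03 and 0.05. Libraries of the paired stages did not overlap for 4 members that were higher and 6 that were lower at 0 h (11.8% and 9.61% of all genes), 6 and 5 at 12 h (12.7% and 13.0%), 4 and 1 at 24 h (7.05% and 3.83%), 4 and 9 at 36 h (11.2% and 10.7%) and 5 and 6 in morulae (6.15% and 21.6%).

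**Figure D2:**
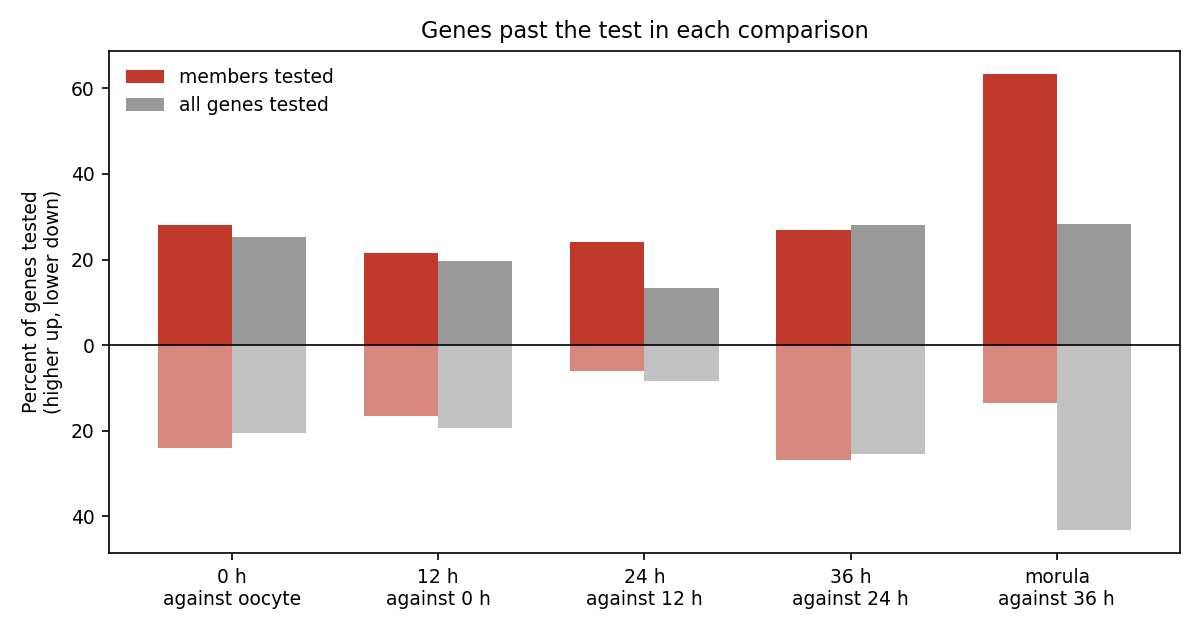
Percent of the members tested (red) and of all genes tested (grey) that were called higher (upward bars) or lower (downward bars, paler) at an adjusted p below 0.05 in each of the 5 comparisons of stages. The bars of members and of all genes are alike in height at 36 h against 24 h, and differ most in morulae, where 63.5% of members were higher against 28.4% of all genes.

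The comparisons of 0 h with oocytes and of 12 h with 0 h share the 5 embryos at 0 h, so a deviation of those embryos enters both with opposite signs. Set side by side, the log2 changes of Eif3k were 2.59 at 0 h and −2.48 at 12 h, those of Eif1b 1.48 and −2.39, and those of Eif5b 1.13 and −0.77. In the opposite order, the log2 changes of Eif2s1 were −1.88 at 0 h and 2.42 at 12 h, those of Eif3h −1.55 and 1.78, and those of Eif4e −0.99 and 1.63. Eif3k averaged 27.9 ± 6.11 CPM in oocytes, 162 ± 27.6 CPM in the 0 h embryos and 28.9 ± 13.5 CPM in the 12 h embryos. Of the 10 oocyte markers, 8 were higher and none lower at 0 h than in oocytes (median log2 change 1.61), and 7 were lower and none higher at 12 h than at 0 h (median −0.93), and their part in the changes of the members was not tested. Priming on poly(A) cannot tell a change in the amount of a transcript from a change in the length of its tail.

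Among the cap-binding proteins, Eif4e1b was compared with Eif4e in the oocyte. Eif4e1b lies on chromosome 13 between 54783998 and 54788459 on the plus strand, and Eif4e on chromosome 3 between 138526179 and 138559696 on the plus strand (GRCm38). Their coding sequences are 66.1% identical over 649 aligned bases, and the longest run that their transcripts share is 12 bases, so reads can tell them apart. To show how far apart they are, a stretch of 90 coding bases is printed, the most alike within the longest block of their alignment without gaps. The 26 bases that differ are in capitals and the 64 that are identical in lower case (GENCODE M21, coding positions 359 to 448 of Eif4e1b and 257 to 346 of Eif4e).
Eif4e1b: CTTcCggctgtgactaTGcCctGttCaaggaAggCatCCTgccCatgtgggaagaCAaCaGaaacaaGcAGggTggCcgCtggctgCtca
Eif4e: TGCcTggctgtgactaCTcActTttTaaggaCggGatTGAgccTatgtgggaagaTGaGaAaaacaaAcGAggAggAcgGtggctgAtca

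Oocytes held less Eif4e1b than Eif4e. Eif4e1b had a lowest level of 26.7 CPM, a median of 32.5 CPM and a highest level of 56.4 CPM over the 8 oocytes. Eif4e had a lowest level of 310 CPM, a median of 395 CPM and a highest level of 440.1 CPM. The ranges do not meet. Per kilobase of exons, Eif4e1b averaged 16.2 CPM per kb and Eif4e 64.3 CPM per kb, and the log2 ratio of Eif4e1b over Eif4e was −1.96 ± 0.28 (SD, n = 8), which is a level of Eif4e 3.88-fold above that of Eif4e1b. All 8 oocytes had a ratio below 0, between −2.35 and −1.44, and the exact sign-flip permutation test gave p = 0.0078 (two-sided), the smallest value that 8 libraries allow.

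Over the stages, the group mean of Eif4e1b was highest at 24 h. Its mean was 36.4 ± 9.88 CPM in oocytes and 21.4 ± 4.86 CPM in 0 h embryos, and the lowest mean before the morula, 13.7 ± 7.56 CPM, was that of 6 h (n = 3). From 12 h, with 33.3 ± 25.7 CPM, the means climbed through 143 ± 71.8 CPM in 18 h embryos (n = 9) to a highest value of 166 ± 26.4 CPM in 24 h embryos. By 36 h the mean was 61.6 ± 26.3 CPM, and among 7 morulae only 2 held any count. By group mean, its order over stages thus ran from 24 h at the top, through 22 h, 18 h, 20 h and 16 h, to the morula at the bottom. Of the 15 neighbouring pairs in that order, 13 had means closer than the larger of their SDs, and the gaps that exceeded it were those of 16 h over 36 h and of 6 h over morulae. Groups at 16 h, 18 h, 22 h and 24 h mix titles with and without a final b. All titles at 20 h end in b. Libraries without b had 165 to 254 CPM of Eif4e1b at 18 h, 274, 274 and 323 CPM at 22 h, and 150 to 211 CPM at 24 h. The 22 h libraries with b had 73.1 to 164 CPM. Among titles without b, every 22 h embryo thus lay above every 24 h embryo.

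Eif4e itself was lowest at 0 h and highest in morulae. Oocytes averaged 386 ± 42.0 CPM, 0 h embryos 185 ± 53.2 CPM, 2 h embryos 284 ± 67.6 CPM and 12 h embryos 579 ± 86.5 CPM. Later means were 1069.5 ± 265 CPM by 24 h, 828 ± 105.1 CPM by 36 h, and 1785 ± 736 CPM for morulae, or 2017 ± 443 CPM without morula replicate 4. In its order over stages, 11 of 15 neighbouring pairs had means closer than the larger SD.

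**Figure D3:**
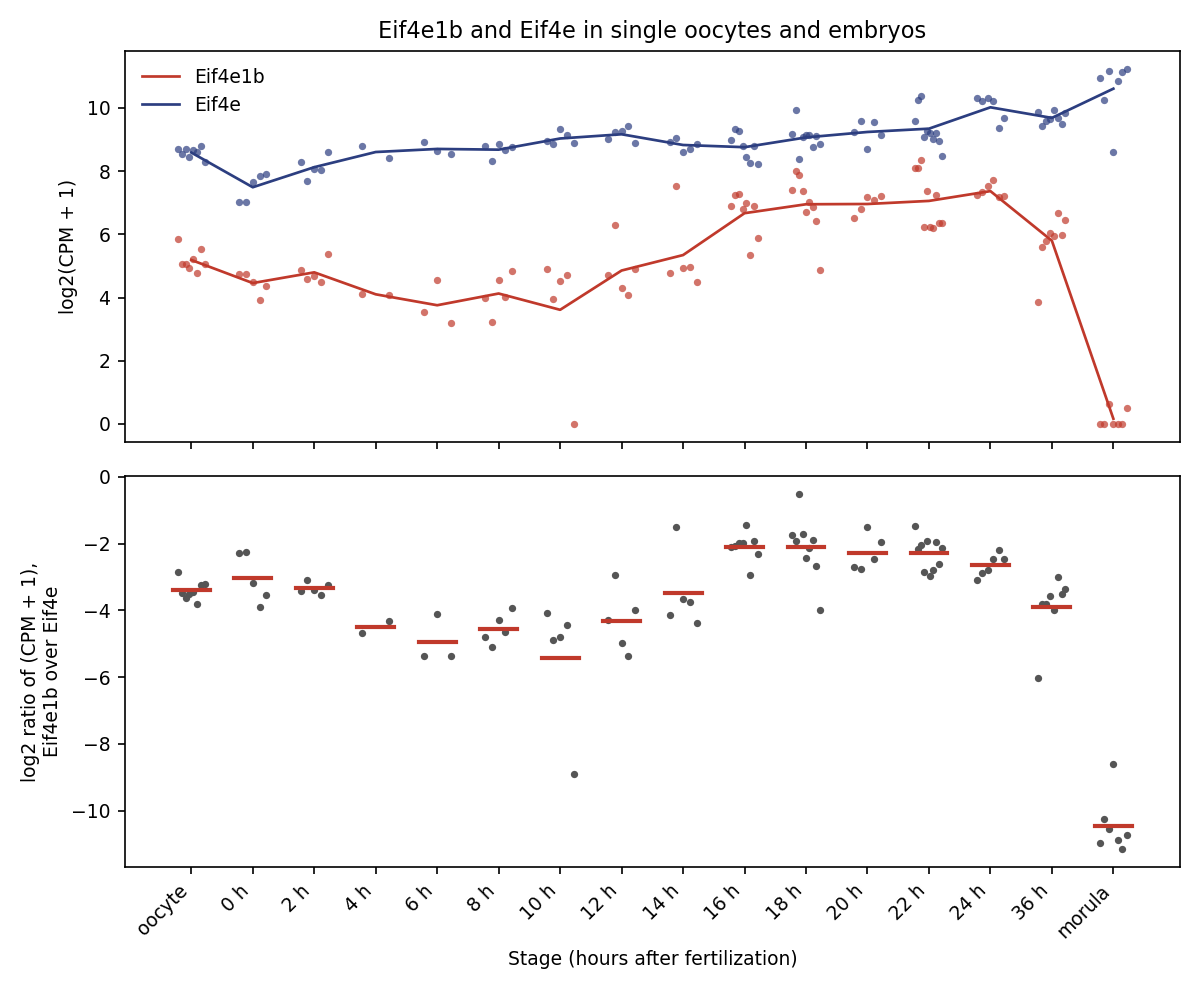
Upper panel: level of Eif4e1b (red) and Eif4e (blue) as log2(CPM + 1) in every library (points) over the 16 stages, with lines through the group means. Lower panel: log2 ratio of Eif4e1b over Eif4e in every library (points) with group means (red bars). The ratio averages −3.40 in oocytes, lies near −2.1 at 16 h and 18 h, and falls to −10.4 in morulae, while the 10 h point at −8.90 is replicate 5.

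Both cap-binding genes fell at 0 h, and their courses differed later. At 0 h, Eif4e1b had 25.8, 26.0, 21.3, 14.2 and 19.8 CPM, all below the lowest oocyte at 26.7 CPM, a log2 change of −0.71 ± 0.21 (SE, adjusted p = 0.0091). In 1 fit of all libraries this call was lost (−0.76, adjusted p = 0.40). Eif4e had 129.8, 128.1, 202, 228 and 239 CPM at 0 h, all below the lowest oocyte at 310 CPM, a log2 change of −0.99 ± 0.14 (adjusted p = 4.9e-06). Their log2 ratio differed by 0.37 between 0 h embryos and oocytes, which did not pass an exact permutation test (adjusted p = 0.235 over 5 comparisons). By 12 h Eif4e was at 519, 605, 612, 692 and 470 CPM, above every 0 h embryo (log2 change 1.63 ± 0.22, adjusted p = 1.9e-05). Eif4e1b at 12 h had 25.4, 78.4, 18.5, 15.7 and 28.6 CPM, a range that overlaps that of 0 h (log2 change 0.64 ± 0.41, adjusted p = 0.22). The ratio was lower by 1.28 at 12 h than at 0 h, short of the threshold with all libraries (adjusted p = 0.0694). Without 12 h replicate 2, the library with 78.4 CPM of Eif4e1b, the log2 ratio differed by −1.63 (12 h minus 0 h, unadjusted p = 0.0159), and without 0 h replicate 4 by −1.499 (unadjusted p = 0.0476), by the same exact permutation test.

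At 24 h Eif4e1b had risen more than Eif4e against 12 h. Eif4e1b had a lowest level of 145 CPM, a median of 155 CPM and a highest level of 211 CPM over the 6 embryos at 24 h, all above the highest 12 h embryo at 78.4 CPM (log2 change 2.31 ± 0.38, adjusted p = 0.0015). Eif4e ranged between 662 and 1283 CPM at 24 h, with a median of 1188 CPM, against 470 to 692 CPM at 12 h, and rose by 0.89 ± 0.23 on the log2 scale (adjusted p = 0.013). The ratio was higher by 1.66 at 24 h than at 12 h in an exact permutation test (adjusted p = 0.0144). At 36 h it was lower again, by 1.24 (adjusted p = 0.00333): Eif4e1b fell to a range of 13.4 to 101.6 CPM at 36 h, against 145 to 211 CPM at 24 h (log2 change −1.46 ± 0.32, adjusted p = 0.0013). Eif4e at 36 h was between 690 and 986 CPM and did not pass (log2 change −0.42 ± 0.19, adjusted p = 0.073). Without the 24 h embryos whose titles end in b, its fall passed (−0.59, adjusted p = 0.011), as it did without 24 h replicate 5 (−0.48, adjusted p = 0.037).

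In morulae Eif4e1b was close to undetected. Of 7 morulae, 5 had no count, and the whole group had 2 counts, against 1089 counts in the 8 embryos at 36 h. The level at 36 h was 376-fold that of morulae, with an exact 95% interval for counting error alone of 103.7 to 3106. Eif4e had a lowest level of 391 CPM (replicate 4), a median of 1996 CPM and a highest level of 2433 CPM in morulae, against 690 to 986 CPM at 36 h, and rose by 1.08 ± 0.34 (adjusted p = 0.0070), or by 1.36 without replicate 4 (adjusted p = 3.5e-06). The ratio was lower by 6.56 in morulae than at 36 h (exact permutation test, adjusted p = 0.00155), a size that depends on the 1 CPM added to each level.

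Eif4e3, a divergent cap-binding relative, and Eif4e2, which binds the cap without recruiting eIF4G and is known as a repressor, went opposite ways. Eif4e3 averaged 434 ± 74.7 CPM at 0 h and 436 ± 65.9 CPM in oocytes, with log2 changes of 0.07 at 0 h, −0.31 at 12 h and −0.34 at 24 h that did not pass. It did pass at 12 h with library size alone as the scaling (−0.62, adjusted p = 0.0067, where the median of all genes was −0.29), and at 24 h without the embryos whose titles end in b (−0.92, adjusted p = 0.0051). It fell by 1.61 ± 0.38 at 36 h against 24 h (adjusted p = 0.0018). In morulae other than replicate 4 Eif4e3 had at most 4.97 CPM, and replicate 4 had 142 CPM, against 42.7 to 172 CPM at 36 h, a log2 change of −5.62 ± 0.76 (adjusted p = 5.2e-07) and of −6.01 without replicate 4. The level of Eif4e3 is uncertain, since its exons overlap those of Gm20696 on the same strand and 73.7% of its non-zero values are fractions. Eif4e2 was at 7.52 ± 4.58 CPM at 0 h and 7.00 ± 2.62 CPM in oocytes and did not pass before 36 h, with log2 changes of 0.14, −0.23 and 1.36, although the last passed under DESeq2 (1.39, adjusted p = 0.040) and without the 24 h embryos whose titles end in b (1.71, adjusted p = 0.011). At 24 h Eif4e2 also passed without 12 h replicate 5 (1.93, adjusted p = 0.029), 24 h replicate 5 (1.52, adjusted p = 0.033) or 24 h replicate 6 (1.52, adjusted p = 0.048). It rose by 1.92 ± 0.38 at 36 h (adjusted p = 0.00049), to 64.8 ± 28.6 CPM, against 16.2 ± 8.32 CPM at 24 h, and by another 1.65 ± 0.33 in morulae (adjusted p = 8.5e-05).

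Among the proteins that hold eIF4E back, Eif4ebp1 rose late. Eif4ebp1, a repressor of eIF4E released by mTOR signalling, had group means under 26 CPM from the oocyte through 24 h except at 10 h, where replicate 5 held 490 CPM, and it rose at 36 h. It had a lowest level of 29.9 CPM, a median of 130 CPM and a highest level of 239 CPM over the 8 embryos at 36 h, against 2.16, 4.27 and 18.9 CPM over the 6 at 24 h, and the groups do not overlap (log2 change 4.31 ± 0.53, adjusted p = 1.1e-05). Morulae averaged 548 ± 207 CPM of Eif4ebp1, a further rise of 2.06 ± 0.36 (adjusted p = 1.8e-05). At the earlier steps its log2 changes of −1.10 at 0 h and −0.90 at 24 h did not pass. The fall at 0 h did pass without oocyte replicate 3 (−1.29, adjusted p = 0.026) or without 0 h replicate 5 (−1.68, adjusted p = 0.041). The related Eif4ebp2 had group means under 14 CPM at all 16 stages and, with all libraries, passed at none of the 4 steps at which it was tested. Without 12 h replicate 5 it passed at 24 h (1.54, adjusted p = 0.046). Eif4ebp3 had group means under 1 CPM and was tested at no step.

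Eif4enif1, which encodes the eIF4E transporter of messenger ribonucleoprotein granules, fell late. It fell by 0.35 ± 0.11 at 0 h (adjusted p = 0.013), and its log2 changes of 0.22 at 12 h and 0.44 at 24 h did not pass. At 36 h it was at 102.7 ± 11.8 CPM, against 295 ± 82.99 CPM at 24 h, with no overlap (log2 change −1.57 ± 0.20, adjusted p = 1.4e-05). Morulae had a lowest level of 2.12 CPM, a median of 20.4 CPM and a highest level of 54.6 CPM, all below the lowest 36 h embryo at 86.7 CPM (log2 change −2.22 ± 0.44, adjusted p = 8.8e-05). Without morula replicate 4 the log2 change was −2.10 (adjusted p = 0.00031). Other proteins known to sit with Eif4e1b or Eif4enif1 in oocyte granules were read from a list of 8 genes. Of the 8, 1 was higher and 5 were lower at 36 h than at 24 h, where 28.1% and 25.4% of all genes tested were, among them Zar1 (log2 change −3.44) and Lsm14b (−2.49), while Ddx6 was the 1 that rose (1.76). In morulae, 6 of 7 tested were lower than at 36 h and none was higher, where 43.3% and 28.4% of all genes tested were, with Ybx2 at −3.69 and Zar1 at −3.08.

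The 5 genes whose course over the 16 group means was most like that of Eif4e1b, among 12879 genes with a mean of at least 10 CPM in some stage, were 9330102E08Rik, Prelp, Tgfb3, Eef2k and Icosl. Their Pearson correlations of log2(mean CPM + 1) with Eif4e1b were 0.988, 0.981, 0.976, 0.976 and 0.975, as a description over stages that share their libraries. Eef2k, the kinase that phosphorylates elongation factor eEF2, averaged 25.01 CPM in oocytes, 13.8 CPM in 12 h embryos, 68.3 CPM in 24 h embryos and 0.0651 CPM in morulae.

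The 3 eIF4G scaffold genes rose at 0 h, where 25.3% of all genes tested were called higher. In 1 fit of all libraries, though, Eif4g3 (0.76, adjusted p = 0.148) and Eif4g2 (0.61, adjusted p = 0.103) did not pass. Eif4g3 was at 63.4 ± 22.7 CPM at 0 h and 37.8 ± 7.08 CPM in oocytes (log2 change 0.83 ± 0.20, adjusted p = 0.0016). Eif4g2, whose product lacks the part that binds eIF4E, was at 387 ± 50.2 CPM at 0 h and 256 ± 46.0 CPM in oocytes, with no overlap (0.66 ± 0.11, adjusted p = 4.3e-05). Eif4g1 rose by 0.42 ± 0.15 (adjusted p = 0.020). At 12 h, Eif4g3 and Eif4g1 lay below every 0 h embryo, with log2 changes of −1.71 ± 0.28 (adjusted p = 0.00015) and −0.88 ± 0.25 (adjusted p = 0.0086). No scaffold gene passed at 24 h or 36 h, and in morulae Eif4g3 fell by 1.16 ± 0.49 (adjusted p = 0.036), to 4.40 ± 2.87 CPM, against 11.02 ± 5.16 CPM at 36 h.

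Of the 5 genes of helicases and their cofactors, 3 fell at 36 h, and all 5 rose in morulae. Of all genes tested, 25.4% were called lower at 36 h and 28.4% higher in morulae. Eif4a1, the main eIF4A helicase, had a lowest level of 23.0 CPM, a median of 43.4 CPM and a highest level of 71.003 CPM at 36 h, against 136.4, 162 and 209.7 CPM at 24 h, and the groups do not overlap (log2 change −1.95 ± 0.25, adjusted p = 1.7e-05). Eif4a2 fell by 1.56 and Eif4b, a cofactor of the helicase, by 1.17 at the same step, while Eif4a3, a helicase of the exon junction complex, rose by 0.97, and Eif4h had a log2 change of 0.13 that did not pass. In morulae all 5 genes of the group rose against 36 h, by 1.16 to 4.31 on the log2 scale. The largest of these rises was that of Eif4h, which stimulates eIF4A (4.31 ± 0.46, adjusted p = 1.4e-08). Its median was 170.1 CPM and its highest level 270.3 CPM in morulae, against 0.993, 8.45 and 16.6 CPM as the lowest, median and highest at 36 h. Its lowest morula level, 71.04 CPM in replicate 4, rests on very few counts. Without replicate 4 the 6 morulae ranged between 127.5 and 270.3 CPM, with no overlap (log2 change 4.51, adjusted p = 1.3e-08). Of the non-zero values of Eif4a2, 67.7% are fractions, so its level is uncertain. The pseudogene Eif4a-ps4 held 104049 counts, and whether any came from reads of an eIF4A gene was not tested.

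Of the eIF2 complex, the alpha subunit gene Eif2s1 showed the clearest dip at 0 h. It had 34.3, 33.5, 28.0, 42.7 and 56.9 CPM at 0 h, against a lowest level of 118.7 CPM, a median of 153 CPM and a highest level of 178 CPM in oocytes (log2 change −1.88 ± 0.17, adjusted p = 2.0e-09). At 12 h it stood at 221, 239, 228, 214 and 161 CPM, above every 0 h embryo (2.42 ± 0.23, adjusted p = 6.4e-07). The beta subunit gene Eif2s2 had log2 changes of 0.07, −0.41 and 0.06 that did not pass up to 24 h, and fell at 36 h. It ranged between 106.3 and 186 CPM at 36 h, against 255 to 809 CPM at 24 h (−1.99 ± 0.26, adjusted p = 1.8e-05). Morulae held 746 CPM in replicate 4 and 3280 to 5847 CPM in the other 6, against at most 186 CPM at 36 h, the largest rise of any member at any of the 5 steps (4.84 ± 0.41, adjusted p = 4.5e-10).

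The gamma subunit of eIF2 has an X-linked gene, Eif2s3x, and a Y-linked gene, Eif2s3y. Their coding sequences are 86.3% identical and their transcripts share a run of at most 34 bases, so short reads may be shared in part. Eif2s3x rose by 1.81 ± 0.59 at 24 h against 12 h (adjusted p = 0.039), a call that 8 of the 11 libraries, left out singly, each took away (log2 changes of 1.52 to 1.91, adjusted p of 0.061 to 0.099), and by 3.14 ± 0.39 in morulae (adjusted p = 1.4e-07), to 140 ± 91.4 CPM, against 16.7 ± 6.18 CPM at 36 h. Counts of Eif2s3y appeared in 9 of 96 libraries, and a level of at least 50 CPM was reached in 1 of the 8 embryos at 36 h and in 3 of the 7 morulae. Before 36 h, 4 libraries held any count of it.

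Subunit genes of eIF2B were very unequal in level until 36 h. In oocytes Eif2b1 was at 788 CPM per kb and Eif2b5, which encodes the catalytic epsilon subunit, at 0.427 CPM per kb, a ratio of highest to lowest of 1843 among the 5 subunits. The ratio was 823 at 24 h, 75.7 at 36 h and 9.79 in morulae, without the libraries that stood apart. In oocytes and at 24 h its size is uncertain. Eif2b5 averaged 1.11 CPM in oocytes, and some libraries of both groups held no count of it. The highest gene was Eif2b1 at each of these stages. The lowest was Eif2b5 in oocytes, at 24 h and in morulae, but Eif2b3 at 36 h, at 2.19 CPM per kb. Eif2b1 fell by 2.06 ± 0.31 at 36 h (adjusted p = 5.9e-05), to 284 to 599 CPM, against 874 to 2950 CPM at 24 h. Eif2b5, tested at the last 2 steps only, rose by 2.59 ± 0.76 at 36 h (adjusted p = 0.0083) and by 1.82 ± 0.45 in morulae (adjusted p = 0.00086).

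**Figure D4:**
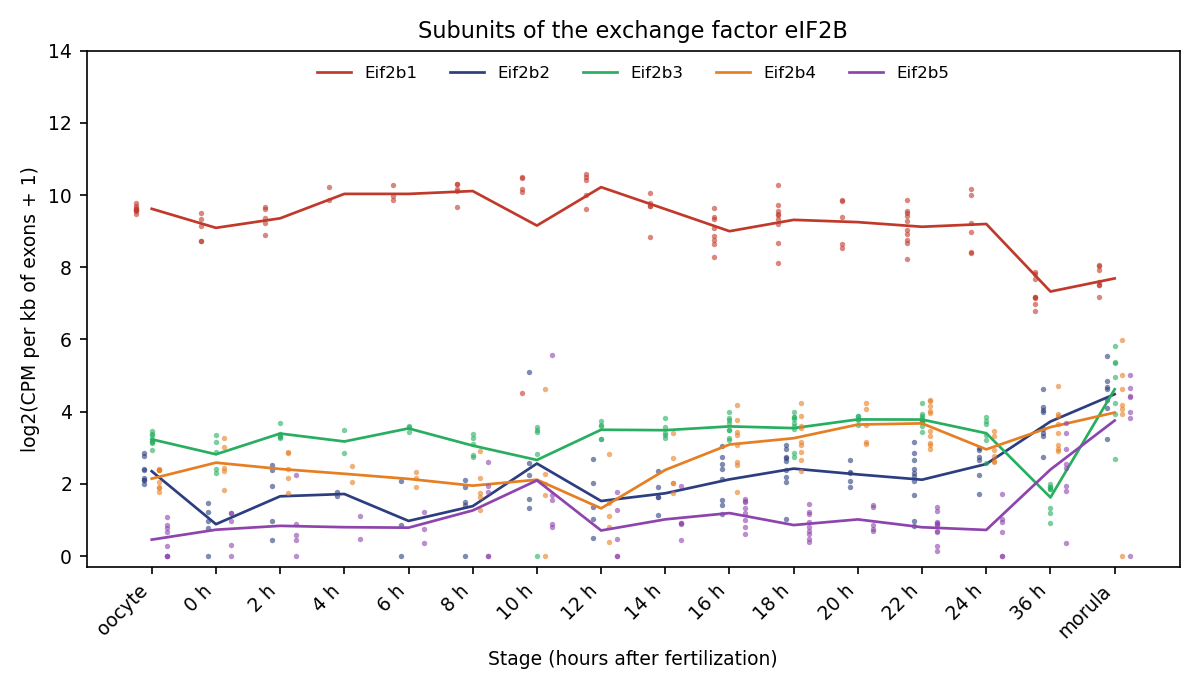
Level of the 5 eIF2B subunit genes per kilobase of exons, as log2(CPM per kb + 1), in every library (points, set side by side by gene) over the 16 stages, with lines through the group means. Eif2b1 (red) lies far above the other 4 from the oocyte to 24 h, and the 5 genes come closest in morulae, where the highest mean is 9.79 times the lowest without replicate 4.

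Of the other eIF2B subunits, Eif2b2 fell to 1.79 ± 1.26 CPM at 0 h, against 7.94 ± 2.32 CPM in oocytes, with no overlap (log2 change −2.13 ± 0.47, adjusted p = 0.00075). Eif2b3, the gamma subunit, fell to 5.87 to 19.4 CPM at 36 h, against 32.3 to 87.8 CPM at 24 h (−2.26 ± 0.31, adjusted p = 2.9e-05). It then rose to a median of 196 CPM in morulae, against at most 19.4 CPM at 36 h (3.76 ± 0.38, adjusted p = 5.9e-09). Replicate 4 had 35.5 CPM of Eif2b3, the lowest level above 0 of any member in that library, which rests on very few counts. Without replicate 4 the log2 change was 3.97 (adjusted p = 8.4e-10). Eif2b1 rose by 1.12 ± 0.22 at 12 h against 0 h (adjusted p = 0.00062).

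Of the kinases that phosphorylate eIF2 alpha, none rose in morulae, where 28.4% of all genes tested were called higher and 43.3% lower. Eif2ak4 encodes the kinase that senses amino acid starvation, and it fell at both late steps. It ranged between 6.29 and 32.4 CPM at 36 h, against 36.5 to 96.1 CPM at 24 h (−1.84 ± 0.36, adjusted p = 0.00046). In morulae it had at most 1.33 CPM, with a median of 0.456 CPM, against at least 6.29 CPM at 36 h (−4.99 ± 0.65, adjusted p = 2.8e-07). Eif2ak3, the kinase of the endoplasmic reticulum stress response, had its highest group mean at 36 h, 15.3 ± 5.42 CPM, and fell to 2.11 ± 1.85 CPM in morulae, with no overlap (−2.65 ± 0.51, adjusted p = 5.6e-05). Eif2ak1, the haem-regulated kinase, did not pass in morulae (−0.06 ± 0.35). Eif2ak2, the kinase of double-stranded RNA, was too low to be tested. It had no count in any morula and 49 counts at 36 h, so its level at 36 h was at least 11.3-fold that of morulae, taking 3 counts over the morula group as the floor.

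Eif2a and Eif2d encode factors that can deliver initiator tRNA without eIF2. Their levels are uncertain, since Serp1 and Rassf5 on the other strand overlap exons of Eif2a and Eif2d. Eif2a was at 121.3 ± 33.7 CPM at 12 h, above every 0 h embryo (0.90 ± 0.22, adjusted p = 0.0032), and lower again at 24 h, at 69.1 ± 10.0 CPM, below every 12 h embryo (−0.81 ± 0.22, adjusted p = 0.018). That fall missed the threshold without 12 h replicate 1 (−0.76, adjusted p = 0.056) and without 12 h replicate 4 (−0.66, adjusted p = 0.055). Eif2d rose by 1.81 ± 0.51 at 24 h (adjusted p = 0.020), or by 1.75 without 12 h replicate 1 (adjusted p = 0.058).

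Of the scanning factors, Eif1b, a close relative of the start-codon factor eIF1, passed at 4 successive steps, each in the direction opposite to the step before. It had 419, 423, 528, 509 and 363 CPM at 0 h, against 126.6, 169.6 and 205 CPM as the lowest, median and highest of the oocytes (1.48 ± 0.12, adjusted p = 3.7e-10). At 12 h it was at 77.3, 114.7, 61.9, 101.3 and 75.1 CPM, below every 0 h embryo (−2.39 ± 0.21, adjusted p = 2.9e-07). At 24 h it lay between 241 and 477 CPM, above every 12 h embryo (2.25 ± 0.26, adjusted p = 0.00032), and at 36 h between 33.4 and 78.2 CPM, below every 24 h embryo (−2.98 ± 0.23, adjusted p = 1.4e-07). Eif1 itself moved by at most 0.32 on the log2 scale at any step. The level of Eif1b is uncertain, since D830035M03Rik on the other strand overlaps its exons and the transcripts of Eif1b and Eif1 share a run of 25 bases.

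Eif1a and Eif1ax encode the scanning factor eIF1A on chromosomes 18 and X. Their coding sequences are 85.5% identical and their transcripts share a run of at most 28 bases, so short reads may be shared in part. Eif1ax rose at 24 h, with a lowest level of 96.9 CPM, a median of 115.2 CPM and a highest level of 179.95 CPM, against 8.85, 18.4 and 30.6 CPM at 12 h (2.62 ± 0.34, adjusted p = 0.00046). Eif1a rose at 36 h to between 114.96 and 406 CPM, against 55.9, 1.94, 0.486, 26.5, 0.719 and 1.34 CPM at 24 h, with no overlap (3.66 ± 0.90, adjusted p = 0.0034). The highest value, 406 CPM, was that of 36 h replicate 1. Its earlier fall at 0 h (−1.72 ± 0.64, adjusted p = 0.033) rested on a few counts and missed the threshold without 0 h replicate 1 (−1.39, adjusted p = 0.081), replicate 2 (−1.73, adjusted p = 0.059) or replicate 3 (−1.43, adjusted p = 0.081). In morulae 4 of the 6 scanning genes rose, where 28.4% of all genes tested did. Among the 4, Eif5, the GTPase activator of eIF2, was at 1834 ± 1107 CPM, against 506 ± 119.4 CPM at 36 h (1.82 ± 0.36, adjusted p = 8.0e-05).

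Of the 14 eIF3 subunit genes, 4 were higher and 4 lower at 0 h, where 25.3% and 20.5% of all genes tested were. Eif3k, a peripheral subunit, rose most of all members at this step: it had 204, 136.5, 169, 162 and 138.5 CPM at 0 h, against 17.3, 28.9 and 36.2 CPM as the lowest, median and highest of the oocytes (2.59 ± 0.15, adjusted p = 9.5e-13). It was back at 24.9, 50.4, 22.5, 14.8 and 31.8 CPM at 12 h, below every 0 h embryo (−2.48 ± 0.28, adjusted p = 3.8e-06). Eif3c, a core subunit, rose by 1.05 ± 0.20 at 0 h (adjusted p = 0.00012) and fell by 1.79 ± 0.31 at 12 h (adjusted p = 0.00020). Eif3h did the reverse, with 3.81 ± 2.04 CPM at 0 h and 11.9 ± 2.96 CPM in oocytes (−1.55 ± 0.35, adjusted p = 0.00077), a rise of 1.78 ± 0.49 at 12 h (adjusted p = 0.0080) and another of 1.82 ± 0.39 at 24 h (adjusted p = 0.0052).

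Some lower calls of eIF3 genes were lost without single libraries. Eif3f fell by 1.61 ± 0.65 at 0 h (adjusted p = 0.047), and the call was lost without oocyte replicate 6 or 8, or without any of 0 h replicates 1 to 4 (log2 changes of −1.64 to −1.32, adjusted p of 0.054 to 0.109). Its 0 h replicate 5, at 9.07 CPM, stood apart from the others, the next being at 1.20 CPM. Eif3a fell by 0.98 ± 0.31 at 24 h (adjusted p = 0.036), and 8 of 11 libraries of that comparison, left out singly, each took the call away (−1.03 to −0.81, adjusted p of 0.055 to 0.091).

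In morulae, 11 of the 14 eIF3 genes were higher than at 36 h and none was lower, with a median log2 change of 2.57 over the 14. Of all genes tested, 28.4% were called higher and 43.3% lower at that step. Eif3g, a core subunit, led with a lowest level of 71.04 CPM (replicate 4), a median of 568.3 CPM and a highest level of 746 CPM in morulae, against 1.76, 21.7 and 112.6 CPM at 36 h (3.87 ± 0.53, adjusted p = 5.4e-07). Without replicate 4 the morulae ranged between 409 and 746 CPM and no longer overlapped 36 h. Eif3e rose by 3.36 ± 0.37 (adjusted p = 2.2e-08) and Eif3m by 3.24 ± 0.36 (adjusted p = 2.9e-08). Without replicate 4 these rises were 3.62 (adjusted p = 2.7e-10) and 3.47 (adjusted p = 1.3e-09). Eif3i, Eif3j1 and Eif3j2 did not pass. The coding sequences of Eif3j1 and Eif3j2 are identical over 786 aligned bases and their transcripts share a run of 1107 bases, so reads cannot be told apart over that run and neither level is certain. At the step before, 36 h against 24 h, 4 eIF3 genes rose and Eif3i fell, where 28.1% and 25.4% of all genes tested did, the rises being led by Eif3l at 37.8 ± 20.3 CPM, against 5.81 ± 3.31 CPM at 24 h (2.65 ± 0.43, adjusted p = 0.00011).

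Eif5b, the factor that joins the ribosomal subunits, was highest at 0 h. It ranged between 654 and 1136 CPM at 0 h, against 301 to 565 CPM in oocytes (1.13 ± 0.13, adjusted p = 2.2e-07), and fell at each of the next 3 steps, by 0.77 at 12 h, by 1.31 at 24 h and by 1.51 at 36 h. Its fall at 24 h (adjusted p = 0.022) was lost without 12 h replicate 1 (−1.26, adjusted p = 0.056), 12 h replicate 3 (−1.08, adjusted p = 0.074) or 24 h replicate 3 (−1.18, adjusted p = 0.051). Eif5a, which carries the amino acid hypusine and acts in elongation, was at 515 ± 118.6 CPM at 0 h and 852 ± 95.96 CPM in oocytes (−0.66 ± 0.12, adjusted p = 0.00010), and at 987 ± 81.4 CPM at 12 h, above every 0 h embryo (0.92 ± 0.18, adjusted p = 0.00067). Its paralogue Eif5a2 had its highest group mean at 36 h. It ranged between 41.2 and 169 CPM at 36 h, against 0.24 to 23.9 CPM at 24 h (3.26 ± 0.67, adjusted p = 0.00075), and fell to 3.65 to 35.5 CPM in morulae, against 41.2 to 169 CPM at 36 h (−3.03 ± 0.41, adjusted p = 5.1e-07). The 35.5 CPM was that of morula replicate 4. Without replicate 4 the highest morula had 16.5 CPM and the log2 change was −2.98 (adjusted p = 1.1e-06). Eif6, which keeps the large ribosomal subunit from joining too early, rose at the 3 late steps, by 1.48 at 24 h, 0.77 at 36 h and 1.78 in morulae, where it reached 477 ± 326 CPM, against 139.2 ± 34.98 CPM at 36 h.

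**Figure D5:**
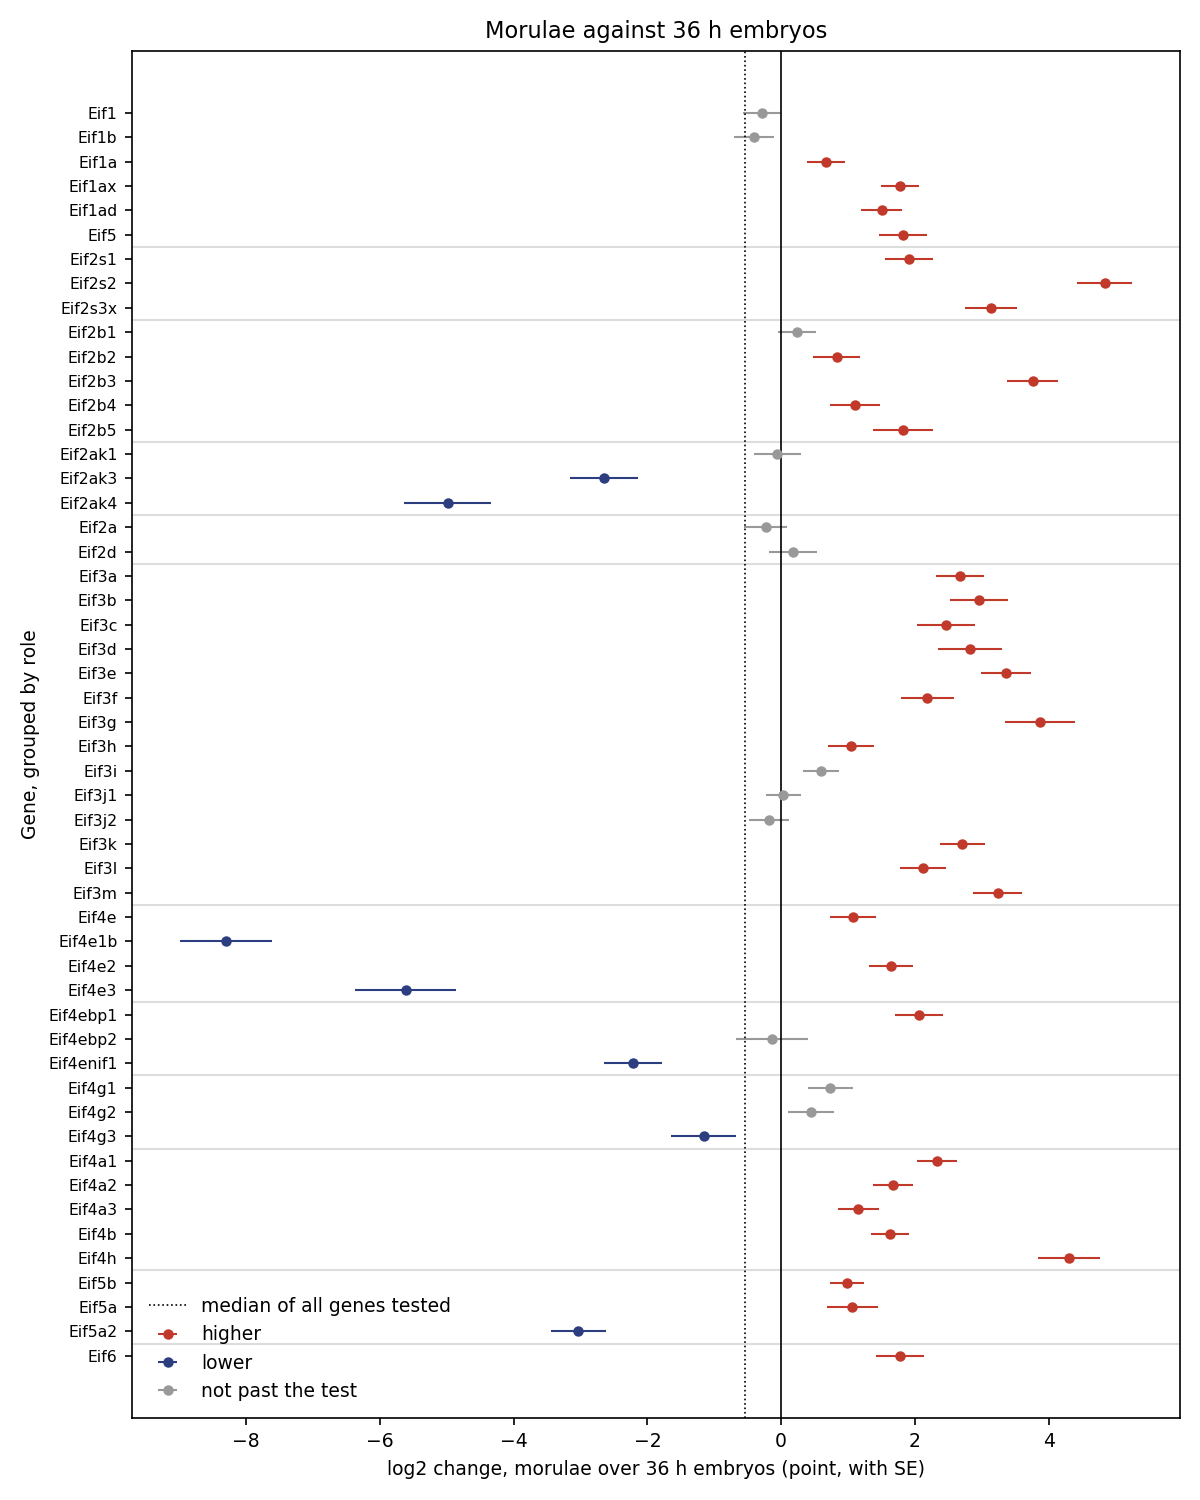
Fitted log2 change of the 52 members tested, morulae over 36 h embryos, as points with their SE, grouped by role and coloured by call at an adjusted p below 0.05. The dotted line marks the median of all genes tested, −0.53, of which 28.4% were called higher and 43.3% lower. All points of the eIF2 and eIF4A groups and 11 of 14 of eIF3 are red (33 genes higher in all), and the blue points (7 lower) are Eif4e1b, Eif4e3, Eif2ak3, Eif2ak4, Eif4enif1, Eif4g3 and Eif5a2.

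The comparisons of morulae with 36 h and of 36 h with 24 h share the 8 embryos at 36 h. Side by side, Eif2s2 had log2 changes of 4.84 in morulae and −1.99 at 36 h, Eif2b3 of 3.76 and −2.26, and Eif4a1 of 2.33 and −1.95. Eif4e3 had log2 changes of −5.62 in morulae and −1.61 at 36 h, and Eif2ak4 of −4.99 and −1.84. The summed level of 10 oocyte markers, such as Zp3 and Gdf9, fell over the late steps: the median was 17826 CPM in 12 h embryos, 7863 CPM in 24 h embryos, 3360 CPM in 36 h embryos and 163 CPM in morulae. Their part in the changes of the members was not tested. The 12 cumulus and granulosa markers summed to 0 to 35.5 CPM in morulae, against 21.9 to 407 CPM at 36 h, and to 30.1 to 569 CPM at 0 h, against 88.1 to 710.5 CPM in the 8 oocytes. Of the 12, 8 were at 0 in every morula and 2 were at 0 in every oocyte. What they contribute to the members' levels was not tested.

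Other genes of initiation were read from a list of 24 partners and regulators, whose counts stand beside the percent of all genes tested that were called higher and lower. At 0 h against oocytes, 8 of 20 tested were higher and none lower (all genes 25.3% and 20.5%), led by Paip2, which restrains the poly(A)-binding protein (4.03), and Ppp1r15b, a subunit of the eIF2 alpha phosphatase (3.45). At 12 h, 3 of 19 were higher and 7 lower (all genes 19.6% and 19.4%), with Ppp1r15b at −4.01 and Paip2 at −3.71. At 24 h, 4 of 19 were higher and 1 lower (all genes 13.4% and 8.32%). At 36 h, 9 of 22 were higher and 4 lower (all genes 28.1% and 25.4%), with the somatic poly(A)-binding protein gene Pabpc1 at 3.58 and its oocyte relative Pabpc1l at −2.26. In morulae 10 of 23 were higher and 8 lower (all genes 28.4% and 43.3%), the higher led by Mcts1 (3.33). Of 10 elongation and termination factor genes, 8 were higher and 2 lower in morulae than at 36 h, beside the same 28.4% and 43.3% of all genes, the higher led by Eef1e1 (3.36) and the lower being Eef2k (−7.30) and Gspt2 (−4.63).

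Sequence features that the choice of genes did not use were read around the starts of the members. RefSeq promoters (GRCm38.p6, 250 bases before to 50 after a start) were found for 43 of the 55 members, 56 promoters in all, and not for the other 12, Eif4e1b among them. Their median number of CpG was 24, against 7 over all 32851 promoters, and their median GC content was 62.2%, against 52.7%. The E-box CACGTG was held by 21.4% of the members' promoters and 7.15% of all, CCGGAAGT by 17.9% and 3.89%, and AAGATGGC by 8.93% and 2.75%, each read on both strands. CCAAT was held by 26.8% of the members' promoters and 37.4% of all, and TATAAA by 7.14% and 13.6%. No motif contains another, the promoters differ in base composition, and a match is only a match of letters.

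The promoters shown are those of Eif4e, the more abundant gene of the cap-binding pair, of Eif3k, which rose most at 0 h, and of Eif4h, which rose by 4.31 in morulae. The rise of Eif4h there was exceeded only by that of Eif2s2, which was not among the members with a promoter match to CACGTG. All 3 hold CACGTG, while only 12 of the 56 promoters of members do, so the 3 do not stand for the members at large. Capitals mark matches to any of the 5 motifs on either strand. They lie at chr3:138527018-138527317 on the plus strand, chr7:28981839-28982138 on the minus strand and chr5:134639360-134639659 on the minus strand, and are printed 5′ to 3′ along the gene.
Eif4e: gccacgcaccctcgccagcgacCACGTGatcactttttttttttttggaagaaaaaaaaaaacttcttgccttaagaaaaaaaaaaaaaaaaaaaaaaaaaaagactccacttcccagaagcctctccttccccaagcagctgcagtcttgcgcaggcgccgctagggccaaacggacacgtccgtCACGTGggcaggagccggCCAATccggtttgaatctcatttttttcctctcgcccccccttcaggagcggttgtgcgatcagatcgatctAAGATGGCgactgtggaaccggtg
Eif3k: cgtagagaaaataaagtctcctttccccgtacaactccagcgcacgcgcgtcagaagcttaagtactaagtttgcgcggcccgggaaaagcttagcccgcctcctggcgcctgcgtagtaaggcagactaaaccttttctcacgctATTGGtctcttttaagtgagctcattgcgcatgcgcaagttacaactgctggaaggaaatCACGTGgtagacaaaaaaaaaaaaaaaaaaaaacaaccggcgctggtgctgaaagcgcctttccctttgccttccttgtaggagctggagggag
Eif4h: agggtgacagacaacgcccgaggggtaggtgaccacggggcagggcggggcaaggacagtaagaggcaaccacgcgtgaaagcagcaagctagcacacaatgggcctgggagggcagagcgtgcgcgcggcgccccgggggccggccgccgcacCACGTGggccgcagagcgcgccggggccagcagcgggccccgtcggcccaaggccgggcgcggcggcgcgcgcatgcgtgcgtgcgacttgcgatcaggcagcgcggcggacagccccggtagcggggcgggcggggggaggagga

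At the other end of the transcripts, the elements TTTTAT and TTTTAAT, known in oocytes as sites that govern cytoplasmic polyadenylation, were sought in the last 100 bases of each longest annotated transcript. They were found in 5 of the 55 members, 9.09%, namely Eif1a, Eif1ax, Eif3j2, Eif3m and Eif4e3, against 16.6% of 21810 protein-coding genes. Such an element was held by 1 of the 14 members called higher in 0 h embryos and by 1 of the 12 called lower. Among the members tested that did not pass, 3 of 24 held it. Of all protein-coding genes tested at that step, 20.6% of those higher, 22.8% of those lower and 21.9% of those not past the test held it. Eif3k, Eif1b, Eif2s1, Eif4e and Eif4e1b held none in that window.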

How the data were processed

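The deposited table holds expected counts per gene and library: per the labels the molecule was total RNA, and per the submitters' processing notes reads went through Trimmomatic 0.39, STAR and featureCounts on mm10, while the annotation release, use of strand and counting options are not given in the sources used here. As deposited by the authors these expected counts are not normalised, and 28.4% of the non-zero gene values are not whole; they were rounded to whole numbers. Symbols and lengths came from GENCODE M21 (GRCm38). Exons of 22 members overlap those of another gene, 10 on the same strand and 14 on the other, some on both. Rev1, for example, faces exons of Eif5b. How far reads of those genes enter the members' levels was not tested. The 5 pairs of neighbouring stages were tested with edgeR 4.0.16 (R 4.3.3; filterByExpr, TMM, robust quasi-likelihood fit of the libraries of each pair, Benjamini-Hochberg adjustment over all genes tested), the fit being tested on simulated data. Ratios of Eif4e1b to Eif4e used exact permutation tests (SciPy 1.17.1) with 1 CPM added. DESeq2 1.42.0, other scalings, filters, rounding, 1 fit of all libraries, a replicate block and leaving out each library were tried. The tests planned had assumed plain counts. Intervals cover counting error only. The members, roles and gene lists were chosen with earlier results of these data known. In each comparison the text gives values for up to 6 members higher and 6 lower with the largest change past the threshold, and for the genes of eIF4E and its repressors in any outcome; for Eif4e1b it names the 5 genes most like it, and for each other list 2 to 4 members.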

Additional observations from a re-analysis of the deposited data

Results flagged for a closer look

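Among 144 groups of 4 to 10 libraries examined for the members and the Eif4e1b to Eif4e ratio, 15 held a single library far from the rest of its group, where chance gives about 1 in 20. Of the 15, 4 belonged to 36 h replicate 1: it was highest in Eif1a (406 CPM, the next being 223 CPM), Eif4e2 (123.4 CPM) and Eif3e (132.9 CPM), and lowest in the log2 ratio of Eif4e1b over Eif4e (−6.02). Another 3 belonged to morula replicate 4, the library with 10614 counts, which was highest in Eif4e3 (142 CPM, the next being 4.97 CPM), in Eif5a2 (35.5 CPM) and in the log2 ratio (−8.61).

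The other 8 came from separate libraries. At 0 h, Eif3f was at 9.07 CPM in replicate 5 and Eif4g1 at 64.9 CPM in replicate 1. At 12 h, Eif4e1b was at 78.4 CPM in replicate 2 and Eif4ebp1 at 32.3 CPM in replicate 5. At 24 h, Eif1b was lowest in replicate 5, at 241 CPM, and Eif4ebp1 highest in replicate 1, at 18.9 CPM. The log2 ratio of Eif4e1b over Eif4e was −8.90 in 10 h replicate 5, which held no count of Eif4e1b, and −1.49 in 14 h replicate 2.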

How the results depend on the processing

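The number of members called moved by more than 1.5 times under 2 settings besides single libraries. In 1 fit of all libraries it was 7 at 0 h against oocytes (26 as reported) and 9 at 12 h against 0 h (16 as reported). Without the 24 h embryos whose titles end in b it was 25 at 24 h against 12 h, 13 higher and 12 lower, against 15 as reported. Leaving out 1 library gave 20 to 27, 13 to 17, 7 to 22, 25 to 28 and 36 to 42 calls over the 5 comparisons in order of stage; at 24 h against 12 h the lowest counts were 7 without 12 h replicate 1 and 9 without 12 h replicate 3 or 4. The log2 ratio of Eif4e1b over Eif4e at 12 h minus 0 h ranged between −1.63 and −1.02 when 1 library was left out. With library size alone as the scaling, the median of all genes moved to −0.29 at 12 h, 0.24 at 24 h, 0.30 at 36 h and −0.77 in morulae; RLE factors gave 0.15 at 36 h and −0.87 in morulae. DESeq2 called 27, 17, 18, 28 and 37 members. Of the 66 named changes past the threshold, 66 were also past it under DESeq2 and under RLE size factors, 65 with library size alone and 54 in 1 fit of all libraries. Calls lost in that fit, besides Eif4e1b, Eif4g2 and Eif4g3 at 0 h, were Eif3c, Eif1a, Eif3f and Eif4enif1 at 0 h, Eif2a, Eif4g1 and Eif5b at 12 h, and Eif3a and Eif2a at 24 h (adjusted p of 0.066 to 0.51). Without the filter on low counts Eif5b, Eif3a and Eif2a at 24 h missed the threshold, as did Eif3a there with library size alone.

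Some named changes that did not pass changed sign. With the replicate block Eif4e2 was at −0.13 at 0 h and Eif4ebp2 at 0.036 in morulae, and with library size alone Eif4enif1 was at −0.047 at 12 h. Without single libraries, at 0 h Eif4e2 ranged between −0.14 and 0.37 and Eif4e3 between −0.048 and 0.11, Eif4e2 at 12 h between −0.83 and 0.023 and Eif4ebp2 in morulae between −0.43 and 0.18. For Eif4ebp1, 24h against 12h, the range was −1.70 to 0.0052. The causes were not tested.

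The title number as a replicate block gave 23, 18, 16, 25 and 34 members called. Deviations of same-numbered libraries from their group means correlated between −0.19 and 0.16 over 25 pairs, of which 5 were over 0.1. The labels do not say what the numbers stand for, and whether they mark a shared mother or handling was not tested. Eif4e in morulae missed the threshold with the block (0.93, adjusted p = 0.0987), as did Eif4enif1 at 0 h (−0.32, adjusted p = 0.0595). Members near or under 10 CPM, such as Eif3f, Eif2b5 and Eif4ebp2, rest on few counts per library.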
